A study of Arabidopsis thaliana with 6 samples.

Results

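The genes described here are 39 nuclear genes of the photosynthetic apparatus of Arabidopsis thaliana, taken by their locus identifiers from the 33341 genes that were counted. They are 4 LHCA and 13 LHCB genes for antenna proteins, 10 PSA and 7 PSB genes for other photosystem subunits, 4 RBCS genes and RCA. Of the 39, 38 passed the read filter (over 10 reads in 2 or more libraries), as did 20013 genes in all.

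The libraries are RNA-seq of nuclei sorted by fluorescence (FANS) from stage 5 flowers of the pAP1:AP1-GR ap1-1 cal-1 floral induction system in the Ler background, after induction with 2 µM DEX. The AP3-domain group has 3 libraries (X13, X16 and X74), in which the GFP-carrying nuclear envelope protein NTF was driven by the AP3 promoter. The AG-domain group has 3 libraries (X14, X71 and X26), in which NTF was driven by the second intron of AG with a minimal 35S promoter. Both groups carry pAP1:AP1-GR, ap1-1 and cal-1 and had the same induction, and the methods describe inflorescences pooled for each collection. The domains overlap, since both genes are active where stamens form. A library is therefore a mixture of the cells in which the reporter was on, and fewer cells of a type cannot be told apart from less RNA per cell.

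Light-harvesting proteins of the LHCA and LHCB families bind chlorophyll and pass excitation energy to photosystem I and photosystem II. RBCS genes encode the small subunit of Rubisco, the enzyme that fixes CO2, and the large subunit is encoded by rbcL in the plastid. Most of these proteins are made in the cytosol and imported into plastids, and their genes are induced by light through transcription factors such as the GOLDEN2-LIKE proteins GLK1 and GLK2, which activate antenna and chlorophyll synthesis genes in Arabidopsis.

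The libraries held between 28808948 and 42089156 counts, and reads of the members made up 0.56% to 0.83% of the nuclear counts. X74 (26717) and X71 (26489) had more genes with a read than the other 4 libraries, which had 22923 to 23439, and these 2 are not in the normalized table that the authors deposited. Of 6 floral genes, edgeR called UFO (log2 fold change 3.61), AP3 (2.36) and AP1 (1.23) higher in the AP3 libraries. It did not call PI (1.58), AG (1.17) and CRC (0.46), and DESeq2 called all of the 6 but CRC. All plants carry pAP1:AP1-GR, and AP1 reads of the transgene and of the gene itself were not separated. The transcript of AG, by its counts, went against the labels. It had 41.5, 75.4 and 94.3 CPM (counts scaled to a common library size) in AP3 libraries X13, X16 and X74, against 38.4, 41.2 and 14.2 CPM in AG libraries X14, X71 and X26. All 3 AP3 libraries were above all 3 AG libraries, edgeR did not call the difference (adjusted p = 0.141) and DESeq2 did. AG libraries are throughout those labelled AG-domain.

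Markers of other cell types also differed between the groups. The phloem markers APL and SUC2 summed to 3.54 to 6.12 CPM in AP3 libraries, against 49.0 to 99.9 CPM in AG libraries, and both were called. Of 4 cambium markers, PXY, ATHB8 and WOX4 were called lower in AP3 and SMXL5 was not, and the 4 summed to 109.4 to 158.1 CPM against 345 to 371 CPM. Of 3 epidermis markers, ATML1 and PDF1 were called higher in AP3 and PDF2 was not, with sums of 3207 to 3892 CPM against 742 to 1737 CPM. JKD, of the cortex markers JKD and CHAL, was called lower (sums 68.2 to 111 CPM against 158.5 to 203.9 CPM). Among 4 genes of dividing cells, CYCB1;1 was called higher, and CDC20.2, CDKB2;1 and CDKB1;1 were not called (sums 2218 to 2286 CPM against 1319 to 1675 CPM). The marker calls up to here are those of edgeR. DESeq2 called the same genes and also SMXL5 and CHAL, lower in AP3, and PDF2 and CDC20.2, higher in AP3. Of the mesophyll markers LOX2, REC1, CA1 and CA2, which stand for the cells that photosynthesize most, 0 were called by edgeR or DESeq2 and 1, CA2, had an unadjusted p under 0.05, lower in AP3. They summed to 346 to 361.5 CPM in AP3 libraries, against 361 to 456 CPM in AG libraries. No marker was at 0 in any group. REC1 made up most of this sum, with 293.4, 292.8 and 249.8 CPM in X13, X16 and X74, against 329.8, 331 and 290.9 CPM in X14, X71 and X26. CA2, a carbonic anhydrase, had 2.64, 22.1 and 4.71 CPM in AP3, against 44.9, 24.1 and 24.4 CPM in AG (log2 fold change -1.67; adjusted p = 0.206, edgeR), and CA1, another carbonic anhydrase, had 4.04, 20.3 and 5.89 CPM, against 31.6, 16.0 and 16.1 CPM (-1.08; adjusted p = 0.349, edgeR). X13 and X74 were the lowest libraries for both, and the groups overlapped for CA1 and not for CA2. LOX2 ranged from 26.3 to 85.8 CPM in AP3 and from 29.3 to 71.4 CPM in AG. The part of these cell types in the results below was not tested.

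Promoter sequences are shown first for the RBCS genes, because RBCS1B and RBCS2B were the 2 members that DESeq2 called, and RBCS1A is the abundant gene of that family. Those of the LHCB2 genes and of LHCB1.3, the highest member, stand for the antenna genes. Each sequence is the 250 bases before the start of the annotated gene, 5′ to 3′ on the strand of the gene, in the RefSeq TAIR10.1 assembly, whose nuclear coordinates match those of the files. Capitals mark the G-box CACGTG, the I-box core GATAAG and the CCAATC box, searched on both strands, so that CTTATC is an I-box core on the opposite strand. The starts are those of the annotated gene, not measured start sites.
RBCS1A promoter, chr1:25049668-25049917, minus strand: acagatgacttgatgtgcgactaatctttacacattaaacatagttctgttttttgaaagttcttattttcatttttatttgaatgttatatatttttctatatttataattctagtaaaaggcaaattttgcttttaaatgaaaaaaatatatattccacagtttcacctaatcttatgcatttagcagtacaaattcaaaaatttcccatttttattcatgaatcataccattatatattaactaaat
RBCS1B promoter, chr5:15385321-15385570, minus strand: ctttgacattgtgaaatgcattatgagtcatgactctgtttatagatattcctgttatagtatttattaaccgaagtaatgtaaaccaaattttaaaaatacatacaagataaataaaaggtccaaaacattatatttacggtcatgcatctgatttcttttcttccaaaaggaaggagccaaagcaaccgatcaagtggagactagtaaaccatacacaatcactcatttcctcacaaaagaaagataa
RBCS2B promoter, chr5:15382072-15382321, minus strand: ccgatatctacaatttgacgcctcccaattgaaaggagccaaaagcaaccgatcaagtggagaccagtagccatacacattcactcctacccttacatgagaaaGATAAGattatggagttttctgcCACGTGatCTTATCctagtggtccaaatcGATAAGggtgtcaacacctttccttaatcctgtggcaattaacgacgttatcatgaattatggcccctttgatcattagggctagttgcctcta
LHCB2.1 promoter, chr2:1824481-1824730, minus strand: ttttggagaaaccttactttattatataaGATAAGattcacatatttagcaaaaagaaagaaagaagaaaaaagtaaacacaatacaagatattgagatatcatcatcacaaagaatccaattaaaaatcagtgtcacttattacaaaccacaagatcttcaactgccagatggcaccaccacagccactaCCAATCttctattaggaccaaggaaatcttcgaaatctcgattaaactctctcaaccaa
LHCB2.2 promoter, chr2:1800473-1800722, minus strand: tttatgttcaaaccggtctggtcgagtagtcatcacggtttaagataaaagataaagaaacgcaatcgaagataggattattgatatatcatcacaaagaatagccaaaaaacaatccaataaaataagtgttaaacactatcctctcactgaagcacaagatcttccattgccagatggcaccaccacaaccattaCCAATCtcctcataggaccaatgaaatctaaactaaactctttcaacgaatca
LHCB2.3 promoter, chr3:10255656-10255905, plus strand: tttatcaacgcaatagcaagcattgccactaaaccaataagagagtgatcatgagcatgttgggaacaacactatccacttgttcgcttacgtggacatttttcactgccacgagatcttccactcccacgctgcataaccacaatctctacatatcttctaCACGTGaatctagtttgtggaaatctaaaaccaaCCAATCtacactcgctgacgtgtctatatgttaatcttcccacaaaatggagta
LHCB1.3 promoter, chr1:10477635-10477884, plus strand: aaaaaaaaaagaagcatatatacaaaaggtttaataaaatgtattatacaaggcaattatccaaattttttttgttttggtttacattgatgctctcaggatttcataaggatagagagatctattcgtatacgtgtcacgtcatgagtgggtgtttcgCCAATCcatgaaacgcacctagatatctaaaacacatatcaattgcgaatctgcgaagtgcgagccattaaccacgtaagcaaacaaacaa

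RBCS2B carried 1 G-box, 123 bases before the start, between I-box cores at 146 and 115 bases, and another core lay at 94 bases. None of the 3 motifs was found in the windows of RBCS1A, RBCS1B and RBCS3B. A stretch near the end of the RBCS1B window recurs in the RBCS2B window before its motifs, so these windows cover different parts of their genes. Bases inside the annotated genes were not searched for motifs, so absence from a window is not absence from the gene. LHCB2.1, LHCB2.2 and LHCB2.3 each had a CCAATC box, 59, 53 and 54 bases before the start, and LHCB2.3 also had a G-box at 88 bases. Over the 39 members, 7 windows (17.9%) held a G-box, 11 (28.2%) an I-box core and 12 (30.8%) a CCAATC box. The same search found them in 7.32%, 12.3% and 10.7% of the windows of 20012 genes. A match is only a match of letters and was not tied to any factor.

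None of the members passed the test, and most fold changes were small. In the edgeR fit, with p-values adjusted over all genes by Benjamini-Hochberg, 0 of 38 members were called, while 7.76% of all genes tested were called. The smallest adjusted p was 0.0644, for RBCS1B. Unadjusted p was under 0.05 for 6 members, which were RBCS1B, RBCS2B, RBCS3B, LHCB2.2, LHCB2.3 and PSBO2, and each of them was lower in AP3. They are 15.8% of the members, while 19.7% of all genes tested had such a p, 13.2% with the lower value in AP3. DESeq2 called 2 members, RBCS1B (adjusted p = 0.0108) and RBCS2B (adjusted p = 0.0305), both lower in AP3. That is 5.26% of the members, while DESeq2 called 9.25% of the genes it tested lower in AP3.

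The members' log2 fold change, AP3 over AG, had a median of -0.06, with 17 values above 0 and 21 below, and the median over all genes tested was 0.03. The split by sign rested on single libraries, since 8 values were above 0 without X13 and 6 without X26, against 15 to 19 with any other library left out. The value lay within 0.3 of 0 for 29 of 38 members (76.3%), against 55.0% of all genes tested. The 95% interval lay wholly between -1 and 1 for 31 members (81.6%), against 59.5% of all genes tested, so for these members a change of more than 2-fold lay outside the interval of the fit. All 3 AP3 libraries were below all 3 AG libraries in 6 members (15.8%), namely RBCS1B, RBCS2B, LHCB2.2, LHCB2.3, PSBO2 and PSBQ2. The share over all genes was 15%. No member had all AP3 libraries above all AG libraries, a pattern of 10.9% of all genes. The difference of means exceeded the pooled SD of log2 CPM in 8 members, the 6 above with LHCB2.1 and RBCS3B, and all were lower in AP3. That is 21.1% of the members, while 44.7% of the 19717 genes with reads in every library had such a difference, 22.6% with the lower value in AP3.

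**Figure D1:**
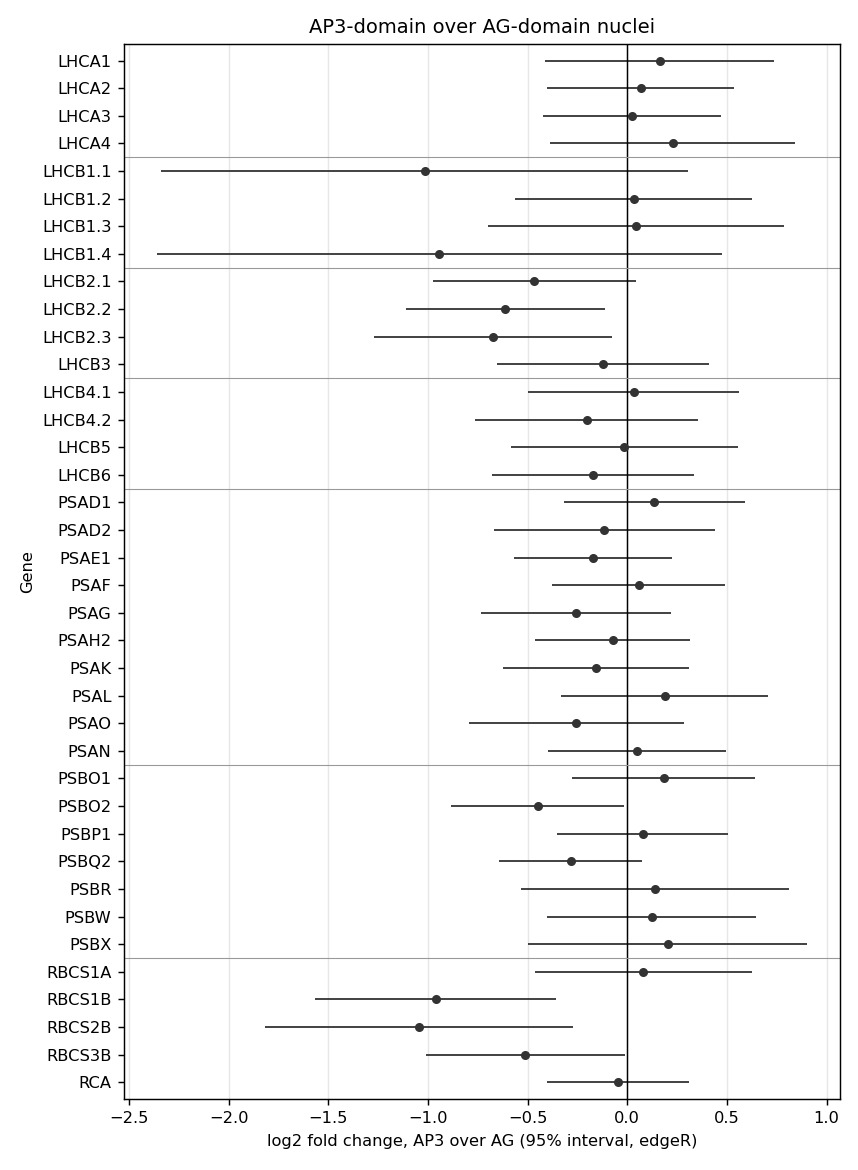
log2 fold change, AP3-domain over AG-domain libraries, of the 38 members that passed the read filter (x axis), with 1 gene per row (y axis) and horizontal lines between gene families. Points are edgeR estimates and bars their 95% intervals, from 3 libraries in each group. Most points lie near 0, and the lowest are RBCS2B (-1.05), LHCB1.1 (-1.02), RBCS1B (-0.96) and LHCB1.4 (-0.94).

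Levels between genes were compared as CPM per kilobase of gene length, averaged over the 6 libraries. LHCB1.3 (AT1G29930) was the highest member with 930 CPM per kb, which was the 99.9th percentile of all genes tested. RBCS1A (AT1G67090) followed with 772 CPM per kb, then PSBR with 308 and LHCB3 with 257.5 CPM per kb. The lowest that passed the filter was LHCB2.3 with 6.12 CPM per kb, so the members spanned 152-fold. The length includes stretches overlapped by other genes, where pairs were assigned to none, so such genes may be understated. These stretches are 37.6% of LHCB2.3, 32.5% of LHCB6, 34.1% of PSAE1 and 61.4% of PSAG. Their median was 92.2 CPM per kb, against 9.71 CPM per kb over all genes tested. LHCB1.3 and RBCS1A together made up 36.2%, 30.9% and 33.1% of the members' summed CPM in AP3 libraries X13, X16 and X74, against 32.4%, 32.9% and 30.6% in AG libraries X14, X71 and X26.

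**Figure D2:**
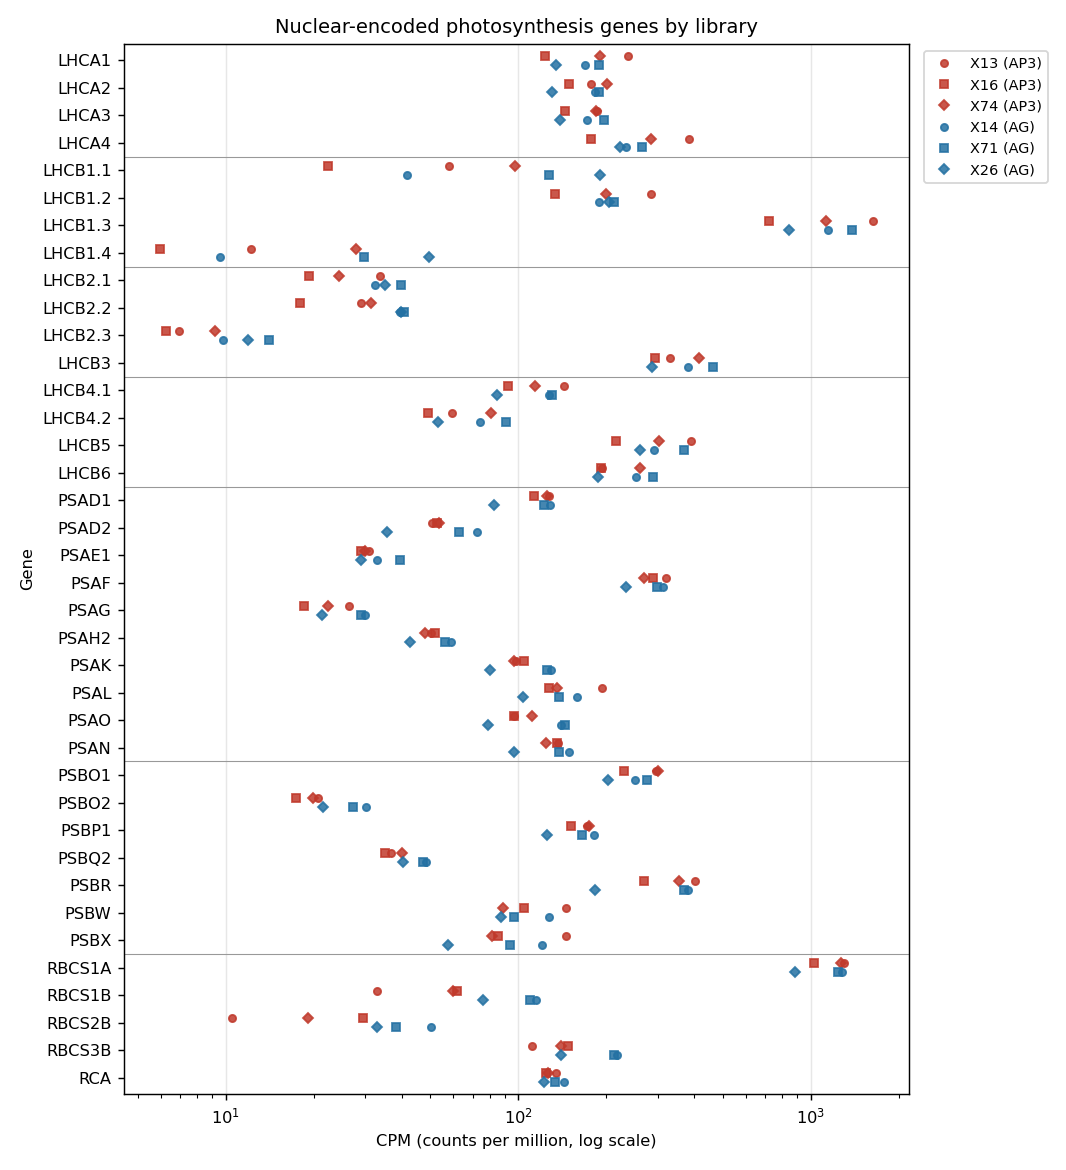
CPM on a log scale (x axis) of the 38 members that passed the read filter (y axis), with 1 point per library, AP3 libraries in red above AG libraries in blue in each row. LHCB1.3 and RBCS1A lie near 1000 CPM, and the AP3 points lie wholly left of the AG points in 6 members.

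The antenna of photosystem I is formed by LHCA1 to LHCA4. LHCA4 (AT3G47470) had 382.5, 176.7 and 284 CPM in AP3 libraries X13, X16 and X74, against 233.7, 264.8 and 221.9 CPM in AG libraries X14, X71 and X26. X13 was the highest of the 6 and X16 the lowest, so the AP3 libraries spanned all the AG ones. LHCA1 (AT3G54890) showed the same order within AP3, with 236.5, 123.6 and 190.1 CPM, against 168.5, 188.1 and 134.9 CPM in AG. LHCA2 (AT3G61470) and LHCA3 (AT1G61520) ranged from 145 to 200.7 CPM in AP3 and from 130.4 to 196.7 CPM in AG. The 4 log2 fold changes lay between 0.02 and 0.23, and the summed level was 812 ± 198 CPM in AP3 and 740.5 ± 107 CPM in AG (SD, n = 3 each).

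The major antenna of photosystem II, a trimer of LHCB1, LHCB2 and LHCB3 proteins, held the most abundant member and several with low counts. LHCB1.3 had 1632, 722.1 and 1131 CPM in AP3 libraries X13, X16 and X74, against 1147, 1386 and 845.5 CPM in AG libraries X14, X71 and X26. Its log2 fold change was 0.04 ± 0.33 (SE; adjusted p = 0.965, edgeR), and the groups overlapped in full. LHCB1.2 (AT1G29910), its neighbour on chromosome 1 together with LHCB1.1, had 284.8, 134.0 and 199.8 CPM in AP3, against 188.2, 212.3 and 204.5 CPM in AG.

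LHCB1.1 (AT1G29920) and LHCB1.4 (AT2G34430) varied widely within each domain. LHCB1.1 had 58.2, 22.4 and 97.4 CPM in X13, X16 and X74, against 41.7, 127.6 and 190.9 CPM in X14, X71 and X26. LHCB1.4 had 12.2, 5.95 and 27.9 CPM in the AP3 libraries, against 9.55, 29.6 and 49.6 CPM in the AG libraries. In both genes X16 was the lowest and X26 the highest library, and the AG libraries alone differed more than the group means did. The log2 fold changes of -1.02 ± 0.59 and -0.94 ± 0.63 (SE) had adjusted p of 0.406 and 0.486 in edgeR. With a library left out, LHCB1.1 ran from -1.58 (without X74) to -0.51 (without X26) and LHCB1.4 from -1.70 (without X74) to -0.35 (without X26). X26 was the lowest AG library for LHCB1.3 and the highest for these 2 genes, so that LHCB1.1 reached 22.6 counts per 100 counts of LHCB1.3 there, against 3.10 to 8.62 in AP3 libraries and 3.63 and 9.20 in the other AG libraries.

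LHCB1.5 (AT2G34420), the remaining LHCB1 gene, had 0 counts in every library. A floor of 3 counts corresponds to 0.0803 to 0.111 CPM. All of its 1045 bases on chromosome 2 (14522524 to 14523568) are overlapped by AT2G08665 on the opposite strand in the annotation used for counting, and read pairs that overlap several genes were assigned to none. Its 0 is therefore no measure of its RNA.

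The 3 LHCB2 genes had lower mean values in AP3, and none was called. LHCB2.2 (AT2G05070) had 29.0, 18.0 and 31.4 CPM in AP3 libraries X13, X16 and X74, against 39.3, 40.6 and 39.9 CPM in AG libraries X14, X71 and X26. The AG libraries lay close together and above all AP3 libraries, of which X16 was the lowest. LHCB2.3 (AT3G27690) had 6.95, 6.25 and 9.20 CPM in AP3, against 9.77, 14.01 and 11.9 CPM in AG, with X74 just under X14. Their log2 fold changes were -0.61 ± 0.22 and -0.67 ± 0.26 (SE), with adjusted p of 0.153 and 0.189 in edgeR. LHCB2.1 (AT2G05100) had 33.7, 19.3 and 24.4 CPM in AP3, against 32.4, 39.7 and 34.9 CPM in AG, and the groups overlapped through X13. LHCB2.1 and LHCB2.2 share identical stretches of up to 152 bases, where reads that map to both are not counted, and 37.6% of LHCB2.3 is overlapped by AT3G27700. LHCB3 (AT5G54270) ranged from 293.7 to 413.6 CPM in AP3 and from 287.2 to 461.7 CPM in AG. Summed over LHCB1 to LHCB3, the level was 1848 ± 588 CPM in AP3 and 1942 ± 333 CPM in AG (SD, n = 3 each).

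The minor antenna proteins LHCB4 to LHCB6 link the trimers to the photosystem II core. LHCB5 (AT4G10340) had 390.2, 216.6 and 303 CPM in AP3, against 290.5, 367.5 and 261.1 CPM in AG, and LHCB6 (AT1G15820) had 193.3, 191.7 and 260.7 CPM, against 252.1, 288.6 and 186.7 CPM. The groups overlapped in both. LHCB4.1 (AT5G01530) ranged from 92.0 to 143.6 CPM in AP3 and from 84.4 to 130.9 CPM in AG, and LHCB4.2 (AT3G08940) from 49.2 to 80.9 CPM and from 53.1 to 90.8 CPM. The 4 log2 fold changes lay between -0.20 and 0.03.

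The PSA genes were the family with the smallest difference in summed level. Their sum was 1055 ± 64.2 CPM in AP3 and 1056 ± 221 CPM in AG (SD, n = 3 each), a ratio of 0.999. PSAD and PSAE proteins sit on the stromal side of photosystem I, where ferredoxin docks, and PSAF helps plastocyanin bind on the lumenal side. PSAF (AT1G31330), the most abundant per length, had 319.4, 289.8 and 269 CPM in AP3 libraries X13, X16 and X74, against 311.7, 298.6 and 234 CPM in AG libraries X14, X71 and X26. PSAD1 (AT4G02770) had 127.5, 113.3 and 125.1 CPM, against 128.2, 122.5 and 82.3 CPM, and X26 was the lowest library for both genes. PSAD2 (AT1G03130) was even in AP3, with 50.8, 52.7 and 53.6 CPM, while the AG libraries lay on either side with 72.0, 62.7 and 35.5 CPM. PSAE1 (AT4G28750) ranged from 28.9 to 30.9 CPM in AP3 and from 28.9 to 39.5 CPM in AG.

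The other PSA genes encode small subunits, of which PSAH, PSAL and PSAO lie on the side where the mobile antenna docks, and PSAG and PSAK lie at the flanks of the core. PSAL (AT4G12800) had the highest log2 fold change of the family (0.19), with 127.7 to 193.2 CPM in AP3 and 103.7 to 159.3 CPM in AG. PSAG (AT1G55670) had the lowest (-0.26), with 18.6 to 26.3 CPM and 21.4 to 30.0 CPM, and 61.4% of its length is overlapped by AT1G55673. PSAO (AT1G08380) also had -0.26, with 96.6, 96.7 and 111 CPM in AP3, against 140.5, 144.1 and 78.8 CPM in AG. X14 and X71 were above all AP3 libraries and X26 below them. PSAK (AT1G30380), PSAH2 (AT1G52230) and PSAN (AT5G64040) showed the same arrangement, with log2 fold changes of -0.16, -0.07 and 0.05.

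In photosystem II, PSBO, PSBP and PSBQ form the oxygen-evolving complex around the manganese cluster. PSBO1 (AT5G66570), the main PSBO gene, had 296.8, 229.8 and 301.4 CPM in AP3 libraries X13, X16 and X74, against 251.3, 275.6 and 202.3 CPM in AG libraries X14, X71 and X26. PSBO2 (AT3G50820) had 20.6, 17.3 and 19.8 CPM in AP3, against 30.1, 27.3 and 21.5 CPM in AG. The groups overlapped for PSBO1 and not for PSBO2, although X26 lay just above X13 there. The log2 fold change of PSBO2 was -0.45 ± 0.19 (SE; adjusted p = 0.236, edgeR). PSBQ2 (AT4G05180) had 36.6, 35.0 and 39.9 CPM in AP3, against 48.3, 47.2 and 40.3 CPM in AG, so X74 and X26 nearly met. PSBP1 (AT1G06680) ranged from 151.8 to 174.2 CPM in AP3 and from 125.7 to 181.4 CPM in AG.

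PSBR (AT1G79040), PSBW (AT2G30570) and PSBX (AT2G06520) encode small photosystem II proteins. PSBR had 402.7, 268.3 and 355.3 CPM in AP3, against 380.8, 367.8 and 182.8 CPM in AG, and X26 was the lowest library. PSBX had 145.5, 85.2 and 81.4 CPM, against 120.2, 93.7 and 57.3 CPM, with X13 and X14 the highest. PSBW ranged from 88.6 to 146.1 CPM in AP3 and from 87.5 to 127.8 CPM in AG. The 3 log2 fold changes lay between 0.12 and 0.20, and the summed PSB level was 1058 ± 164 CPM in AP3 and 977 ± 227 CPM in AG (SD, n = 3 each).

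The RBCS genes divided into an abundant gene with a fold change near 0 and 3 less abundant genes with lower values in AP3. RBCS1A lies on chromosome 1 from 25048158 to 25049667, and RBCS3B (15376988 to 15378642), RBCS2B (15380907 to 15382071) and RBCS1B (15383167 to 15385320) lie side by side on chromosome 5, all on the minus strand. RBCS1A had 1296, 1029 and 1270 CPM in AP3 libraries X13, X16 and X74, against 1283, 1237 and 880.6 CPM in AG libraries X14, X71 and X26. Its log2 fold change was 0.08 ± 0.24 (SE; 95% interval -0.46 to 0.62; adjusted p = 0.915, edgeR).

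RBCS1B (AT5G38430) had 33.0, 61.8 and 59.6 CPM in AP3 libraries X13, X16 and X74, against 114.9, 109.8 and 76.0 CPM in AG libraries X14, X71 and X26. All AG libraries were above all AP3 libraries, and X13 was the lowest. The log2 fold change was -0.96 ± 0.27 (SE; 95% interval -1.57 to -0.36; adjusted p = 0.0644, edgeR), and it lay between -1.13 and -0.71 over the 13 alternatives, with adjusted p of 0.0108 to 0.175. RBCS2B (AT5G38420), whose promoter window holds the G-box and I-box cores, had 10.5, 29.4 and 19.1 CPM in AP3, against 50.5, 38.3 and 32.8 CPM in AG. X16 came close to X26, and X13 was again the lowest library. The log2 fold change was -1.05 ± 0.34 (SE; 95% interval -1.82 to -0.27; adjusted p = 0.114, edgeR), between -1.45 and -0.73 over the alternatives, with adjusted p of 0.0305 to 0.293. RBCS3B (AT5G38410) had 111.1, 147.8 and 139.9 CPM in AP3, against 217.9, 211.7 and 139.5 CPM in AG, with X26 inside the range of AP3. Its log2 fold change was -0.51 ± 0.22 (SE; adjusted p = 0.239, edgeR). RBCS1B and RBCS3B share an identical run of 310 bases, so their counts are less certain than that of RBCS2B, which shares none of 100 bases or more with another member.

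A ratio of paralogs within a library does not depend on the library size. RBCS1B had 2.55, 6.01 and 4.70 counts per 100 counts of RBCS1A in X13, X16 and X74, against 8.95, 8.88 and 8.62 in X14, X71 and X26. The AG libraries agreed closely, and the AP3 libraries were lower and more spread. RBCS2B had 0.811, 2.85 and 1.50 counts per 100 of RBCS1A in AP3, against 3.93, 3.10 and 3.73 in AG, and RBCS3B had 8.58, 14.4 and 11.0, against 17.0, 17.1 and 15.8. PSBO2 had 6.94, 7.54 and 6.58 counts per 100 of PSBO1 in AP3, against 12.0, 9.89 and 10.6 in AG. These 4 of the 11 pairs compared had all AP3 libraries below all AG libraries, and no pair had them above. No such share was computed for ratios of other genes. Among single genes tested, 15% had all AP3 libraries below and 10.9% had them above. The exact permutation test over 3 and 3 libraries gave p = 0.1 for each of the 4, two-sided, which is the smallest value it can give, and 0.275 after Benjamini-Hochberg adjustment over the 11 pairs. The 3 RBCS ratios share RBCS1A, and the ratios use the same counts as the fold changes. The summed RBCS level, most of it RBCS1A, was 1402 ± 118 CPM in AP3 and 1464 ± 292 CPM in AG (SD, n = 3 each).

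**Figure D3:**
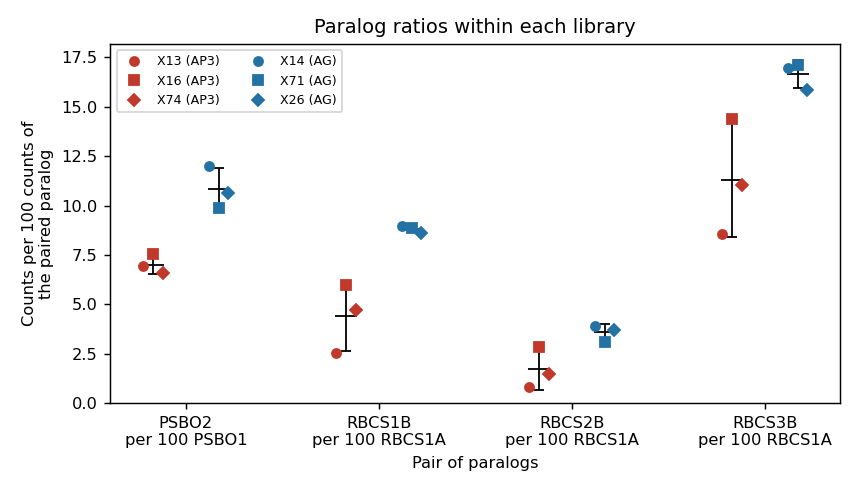
Counts of the minor gene per 100 counts of its paralog (y axis) in each library, for PSBO2 with PSBO1 and for RBCS1B, RBCS2B and RBCS3B with RBCS1A (x axis), AP3 libraries in red on the left and AG libraries in blue on the right of each pair. Black bars are the mean ± SD of 3 libraries. Every AP3 point lies under every AG point of its pair. These are the 4 of the 11 pairs compared in which this held, and the pairs that overlapped are not drawn.

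RCA (AT2G39730), Rubisco activase, which frees Rubisco of inhibiting sugar phosphates, varied little between libraries. It had 135, 124.3 and 126.5 CPM in AP3 libraries, against 143, 133.3 and 122.7 CPM in AG libraries, and the log2 fold change was -0.05 ± 0.16 (SE).

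The libraries within a domain differed together over many members. Of the 38 members, 31 were lower in X16 than in X13, both AP3. In AG, 32 were lower in X26 than in X14 and 36 were lower in X26 than in X71. The lowest of the 6 libraries was X26 for 21 members, X16 for 14 and X13 for 3. The highest was X14 for 13 members, X13 for 12, X71 for 9, and X74 and X26 for 2 each. The median deviation of the members from their own mean, in log2 CPM, was 0.07 in X13, -0.20 in X16 and 0.01 in X74, against 0.16 in X14, 0.23 in X71 and -0.28 in X26. These counts and medians were not computed over all genes. A shift of the members therefore cannot be told from a shift of these libraries in general. The median within-group SD of log2 CPM was 0.252 in AP3 and 0.298 in AG over the members, against 0.263 and 0.288 over the genes with reads in every library. In sum, the members reached 8091, 5671 and 7244 CPM in X13, X16 and X74, against 7511, 7985 and 5649 CPM in X14, X71 and X26, a ratio of means of 0.993. Marker sums in X26, X14 and X71 were 99.9, 58.6 and 49.0 CPM for phloem and 742, 1737 and 1276 CPM for epidermis. They were 371, 351.5 and 345 CPM for cambium, 204, 158.5 and 173 CPM for cortex and 1582, 1675 and 1319 CPM for dividing cells. For mesophyll they were 361, 456 and 442.5 CPM, and for the floral genes 243, 545.5 and 442 CPM. Their link to the spread of the members was not tested.

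**Figure D4:**
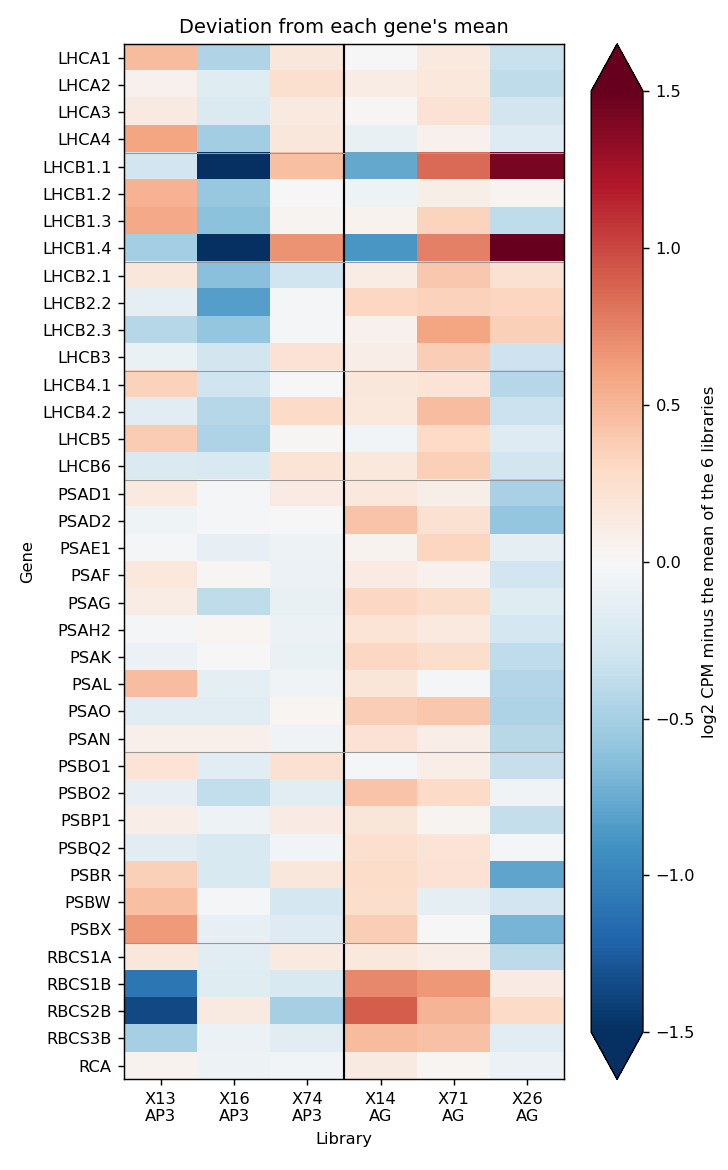
Deviation of log2 CPM from the mean of the 6 libraries for each of the 38 members (y axis) in each library (x axis, AP3 left of the black line and AG right of it), red for higher and blue for lower, with colors that end at 1.5. Columns X16 and X26 are mostly blue, LHCB1.1 (1.43) and LHCB1.4 (1.50) have the highest values of column X26, in which LHCB1.2, the 3 LHCB2 genes, RBCS1B and RBCS2B are also above 0, and RBCS1B, RBCS2B and RBCS3B are lowest in X13.

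Other genes of the pathway were examined in the same fit. Of 90 nuclear genes in 6 further lists, all of which passed the read filter, 1 was called higher in AP3 and 4 lower, which is 5.56%, against the 7.76% of all genes tested. None was called among 12 other photosystem genes, 13 genes of electron transport and ATP synthase, 18 of the Calvin cycle and 19 of chlorophyll synthesis, whose median log2 fold changes were 0.09, 0.13, 0.03 and 0.04. Of these 62 genes, 4 had an unadjusted p under 0.05 in edgeR, while 19.7% of all genes tested had such a p. FBA3, GSA1 and CHLG had higher and PORA lower values in AP3, and DESeq2 called 0 of the 62. PORA had only 6, 2 and 1 counts in X13, X16 and X74, against 29, 6 and 28 in X14, X71 and X26. Over all 90 genes DESeq2 called 8, which were 2 photorespiration genes and 6 regulators, or 8.89%, while it called 12.2% of all genes it tested in either direction. Of 12 photorespiration genes, CAT2, a catalase that breaks down the peroxide made in peroxisomes, was called higher, with 22.5, 21.4 and 30.7 CPM in AP3, against 14.9, 9.57 and 12.3 CPM in AG (log2 fold change 1.02 ± 0.24, SE; adjusted p = 0.032, edgeR). GOX1, a glycolate oxidase that makes this peroxide, was called lower, with 42.0, 59.3 and 45.4 CPM, against 94.0, 79.3 and 76.3 CPM (-0.77 ± 0.19, SE; adjusted p = 0.037, edgeR). CAT2 and GOX1 each passed in 7 of the 13 alternatives, and in 1 of the 6 fits that left out a library. They are 16.7% of the photorespiration list, against 7.76% of all genes tested. GOX2, the neighbour of GOX1, was not called (log2 fold change -0.22, adjusted p = 0.639, edgeR), and its groups overlapped. Stretches that GOX1 and GOX2 share were not examined.

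Among 16 regulators of photosynthesis genes, GLK1, GLK2 and GNC were called lower in AP3 and none higher. That is 18.8% of the list, against 7.76% of all genes tested, called in either direction. GLK2 had 8.10, 10.6 and 10.4 CPM in AP3 libraries X13, X16 and X74, against 28.9, 34.5 and 29.9 CPM in AG libraries X14, X71 and X26. The groups were far apart, with a log2 fold change of -1.68 ± 0.20 (SE; adjusted p = 0.0014, edgeR), and GLK2 was called in all 13 alternatives, with adjusted p of 8.51e-12 to 0.0148. GLK1 had 2.14, 4.14 and 4.82 CPM in AP3, against 11.1, 7.70 and 10.9 CPM in AG (-1.42 ± 0.36, SE; adjusted p = 0.046, edgeR). GNC, a GATA factor that promotes greening, had 2.77, 2.37 and 2.41 CPM, against 7.30, 5.16 and 5.82 CPM (-1.27 ± 0.32, SE; adjusted p = 0.042, edgeR). GLK1 and GNC were called in 5 of the 13 alternatives, GLK1 in 1 and GNC in 0 of the 6 fits that left out a library. The phytochrome-interacting factor PIF4, which represses greening in the dark, had a log2 fold change of -2.07 and missed the threshold (adjusted p = 0.055, edgeR). DESeq2 called GLK1, GLK2, GNC, PIF3, PIF4 and PIF5, all lower in AP3. They are 37.5% of the list, while DESeq2 called 9.25% of the genes it tested lower in AP3. These differences stood beside antenna genes of which none was called. The median log2 fold change was 0.12 for LHCA, -0.54 for LHCB1 to LHCB3 and -0.09 for LHCB4 to LHCB6. Within LHCB1 to LHCB3, the abundant LHCB1.3 and LHCB1.2 had 0.04 and 0.03, and the summed level had a ratio of 0.952. Whether the regulators and the antenna genes are linked was not tested.

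**Figure D5:**
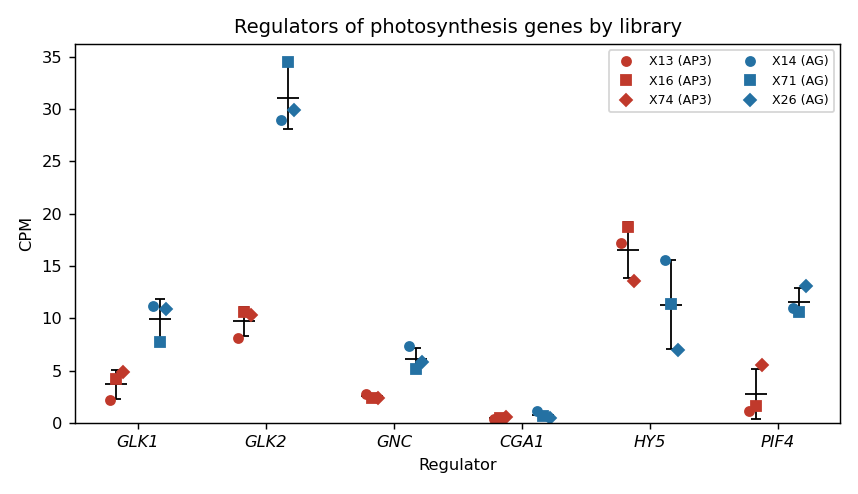
CPM (y axis) of 6 regulators (x axis) in each library, AP3 libraries in red on the left and AG libraries in blue on the right, with black bars for the mean ± SD of 3 libraries. The AP3 points of GLK1, GLK2, GNC and PIF4 lie under all AG points of the gene, a pattern of 15% of all genes tested. PIF4 was not called by edgeR, HY5 overlaps and CGA1 lies near 0 in both groups. The rest of the list of 16 regulators is not drawn. Of these, PIF3 and CIA2 also had all AP3 libraries below all AG libraries, and the groups overlapped for the others.

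The plastid-encoded partners were left out of the fit and are given on the scale of the nuclear counts. The 8 genes psaA, psaB, psbA, psbB, psbC, psbD, rbcL and petA summed to 796, 707 and 556 CPM in X13, X16 and X74, against 717, 553.5 and 736 CPM in X14, X71 and X26. X74 and X71 were the lowest library of their group, and the groups overlapped. Reads on all plastid genes made up 2.53%, 2.71% and 1.55% of the counts in AP3, against 2.86%, 1.92% and 1.94% in AG. rbcL, the partner of the RBCS genes, had 61.6, 41.1 and 64.1 CPM, against 56.6, 55.2 and 40.3 CPM. Plastid RNA does not belong to nuclei, so these values are no measure of plastid expression.

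In the variance stabilized table that the authors deposited for X13, X16, X14 and X26, the same 38 members were present. The median difference of the members, AP3 minus AG on its log2-like scale, was 9.4e-05, against 0.0285 over its 18761 genes. RBCS1B (-0.94) and RBCS2B (-0.94) were lower in AP3 there, as was LHCB2.2 (-0.64), from counts of the same 4 libraries.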

How the data were processed

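RNA of GFP-positive nuclei was sequenced from 3 AP3-domain and 3 AG-domain collections (SMART-Seq v4 cDNA, ThruPLEX libraries). The authors trimmed the reads, mapped them to TAIR10 with STAR 2.7.0b keeping uniquely mapped reads, and deposited unnormalized counts of read pairs per gene. Per the file headers, whole Araport11 genes were counted with featureCounts 1.6.0, with introns and unstranded. Pairs that overlap several genes were assigned to none. A deposited table of the authors holds variance stabilized, log2-like values from DESeq2 1.24.0 for X13, X16, X14 and X26, which served here only for a side check of the members.

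Libraries held 28808948 to 42089156 counts. Organelle genes were removed, and the 20013 genes that had over 10 reads in 2 or more libraries were fitted with edgeR 4.0.16 (R 4.3.3; TMM, quasi-likelihood test, Benjamini-Hochberg over all of them, called at an adjusted p under 0.05). Standard errors were back-calculated from the F statistic. Intervals are 95% intervals of the fit. DESeq2 1.42.0, RLE scaling, other filters, organelle genes kept, the 4 libraries of the authors' table, a block for that table and leaving out each library were alternatives. Paralog ratios were compared with exact permutation tests over the libraries. All 39 members are named, and of the other lists the called genes with the 2 largest fold changes in each direction, the markers and the plastid-encoded genes. Further genes named with an adjusted p above the threshold were chosen after their values were seen. The members and lists were chosen with earlier results of these data known. The paper calls its domain libraries biological replicates, and neither it nor the labels say whether they came from separate plants. The p-values therefore measure only the spread between these libraries. Promoter windows were read from the RefSeq TAIR10.1 assembly, in which 33055 of the 33056 matched genes had the coordinates of the count files.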

Additional observations from a re-analysis of the deposited data

How the results depend on the processing

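No paired analysis was possible because the labels give no replicate numbers. Over all genes, edgeR's main fit called 1554, DESeq2 called 2435 and the fit to the 4 libraries of the authors' table called 1022. Leaving out a library gave 737 to 1480, with 737 without X16, 953 without X13 and 981 without X71. Among the members, the main count of 0 became 2 with DESeq2 and 2 without a filter beyond 1 read, RBCS1B and RBCS2B in each, and it was 0 under every other alternative, each library left out included. Among the 90 other genes of the pathway, the main count of 5 became 8 with DESeq2 and 2 with the 4 libraries, and leaving out a library gave 1 to 4. The median log2 fold change of the members ran from -0.18 (without X26) to 0.02 (without X71) when a library was left out.

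In the fit to the 4 libraries, LHCB5 (0.13) and PSAH2 (0.0045) had a positive log2 fold change. Leaving out a library changed the sign in 20 members, none of which had a main log2 fold change further from 0 than 0.23. Their lowest and highest log2 fold changes with a library left out were as follows. LHCA1 ran from -0.047 to 0.37, LHCA2 from -0.086 to 0.17, LHCA3 from -0.099 to 0.15 and LHCA4 from -0.045 to 0.46. LHCB1.2 ran from -0.26 to 0.25, LHCB1.3 from -0.27 to 0.29, LHCB3 from -0.29 to 0.048, LHCB4.1 from -0.15 to 0.17 and LHCB5 from -0.22 to 0.17. PSAD1 ran from -0.041 to 0.24, PSAD2 from -0.36 to 0.081, PSAF from -0.062 to 0.12, PSAH2 from -0.21 to 0.0019, PSAL from -0.0075 to 0.32 and PSAN from -0.12 to 0.16. PSBP1 ran from -0.063 to 0.18, PSBR from -0.13 to 0.30, PSBW from -0.091 to 0.28, PSBX from -0.10 to 0.44 and RBCS1A from -0.075 to 0.17. The cause of these changes was not tested.

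With 3 libraries in each domain, the spread between libraries and not the depth set the precision of the members, of which the lowest count in a library was 181. Counts over whole genes without strand leave overlapped genes less certain, and stretches that paralogs share were left uncounted where reads mapped to more than one place.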
